A study of Mus musculus with 6 samples.

Results

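The actin cytoskeleton and motility genes of regulatory T (Treg) cells were compared between Batf+/+ and Batf-/- mice. The set holds 46 genes chosen by name for what their products do, from actin itself to its nucleators, bundlers, small GTPases and adhesion linkers. The choice was made with earlier results of these data known. Of the 46 genes, 43 had at least 1 probe set that names only that gene, among 18193 such genes on the array, and they were read by 111 probe sets. The 3 others were not analysed here: both probe sets for Arpc1b, a subunit of the Arp2/3 complex, also name Gm5637, and Arpc3 and Actr2, of the same complex, matched 0 probe sets.

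Treg cells restrain immune responses, and Batf, which belongs to the AP-1 transcription factors, binds DNA with Jun proteins and acts with Irf4. Per the labels, CD4+ cells that carried a human CD2 reporter of Foxp3 were taken from lymph node and spleen of C57BL/6 FoxP3hCD2.Batf+/+ or FoxP3hCD2.Batf-/- mice, with no treatment and no culture, and each genotype gave 3 arrays. Mice of both genotypes carried the reporter, and the labels name no Cre, so the deletion is described for the mice and not for Treg cells alone. Whether each array came from a different mouse is not stated, so the p-values measure only how these samples scatter, and that scatter may be technical. The levels are on the log2 scale with the Batf+/+ median of each gene set to 0, so genotypes can be compared within a gene but genes cannot be ranked by abundance. In bulk RNA, fewer cells of a type and less RNA per cell cannot be told apart.

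T cells move by building branched actin at their front edge. Rac and Cdc42 GTPases, switched on by exchange factors such as Dock2 and Dock8, activate the Was and Wasf proteins, which turn on the Arp2/3 complex, while formins and Ena/VASP proteins lengthen unbranched filaments. Profilin, thymosins and cofilin set the supply of actin subunits, and talin, vinculin and the ERM proteins tie filaments to integrins and to the membrane. Loss of Was, Coro1a, Dock2 or Dock8 is known to impair lymphocyte migration or survival in people and mice.

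As a check of the labels, Batf was read by 1 probe set, at -0.13, 0 and 0.14 on Batf+/+ arrays 1, 2 and 3 and at -3.13, -3.16 and -2.37 on the Batf-/- arrays, which gives -2.89 ± 0.19 (SE) for Batf-/- minus Batf+/+ on the log2 scale and a limma adjusted p of 0.000202 with 3 arrays in each genotype. The groups did not overlap. The position of the probe set relative to the deletion was not analysed here. Of 7 Treg and T cell markers 0 passed the threshold. Cd4, Cd3e, Cd3g and the Treg factor Foxp3 had differences of 0.01, -0.09, -0.15 and -0.12, and Ctla4 had -0.25. The genotypes did not overlap in 4 of the 7 markers, with 3 lower and 1 higher in Batf-/- cells. Cd3e and Foxp3 were among the lower ones. Foxp3 was apart only narrowly, at 0.041, 0 and -0.145 on the Batf+/+ arrays and at -0.152, -0.165 and -0.159 on the Batf-/- arrays. Ikzf2, the Helios factor of Treg cells, lay lowest at -0.51 ± 0.10 (1.42-fold lower, no overlap, limma adjusted p = 0.0526), and Il2ra, the IL-2 receptor alpha chain, was on the other side at 0.21 ± 0.07, also with no overlap. Their mean level ran from -0.09 to 0.03 on the Batf+/+ arrays and from -0.17 to -0.10 on the Batf-/- arrays. In each of the marker lists of B cells, macrophages, dendritic cells, neutrophils, NK cells, CD8 T cells, stroma, platelets and erythroid cells, and of the cell cycle, 0 genes passed.

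No member of the actin set passed the threshold in either direction. By limma with Benjamini-Hochberg adjustment over all genes, 0 of the 43 measured genes had an adjusted p below 0.05, where 1.14% of all 18193 genes did, and the smallest was 0.256, for Vasp. At an unadjusted p below 0.05 there were 7 members (16.3%), 4 lower and 3 higher in Batf-/- cells, where that level was met by 7.69% of all genes. The differences ran from -0.25 for Vasp to 0.23 for Evl, both proteins of the Ena/VASP family. Among all genes 3.66% lay below that range and 3.19% above it.

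The intervals around the gene means were narrow. The 95% interval of the log2 difference lay within a 1.5-fold change in either direction for all 43 members, and for 95.3% of all genes. The farthest bounds among the members were 1.34-fold lower (Tln1) and 1.33-fold higher (Evl). Single probe sets of Rhoh, Rhoa, Rdx, Cdc42 and Tln1 had intervals that reached past 1.5-fold. That of Rhoa ran from -0.95 to 1.11 and that of Rhoh from -1.25 to 0.40. The intervals carry only the scatter of these arrays, and a transcript near background, which cannot be seen in centred values, could differ by more. The standard error of a member's difference had a median of 0.08. The smallest difference called in any gene of the array was 0.38, which exceeds the largest difference of any member.

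**Figure D1:**
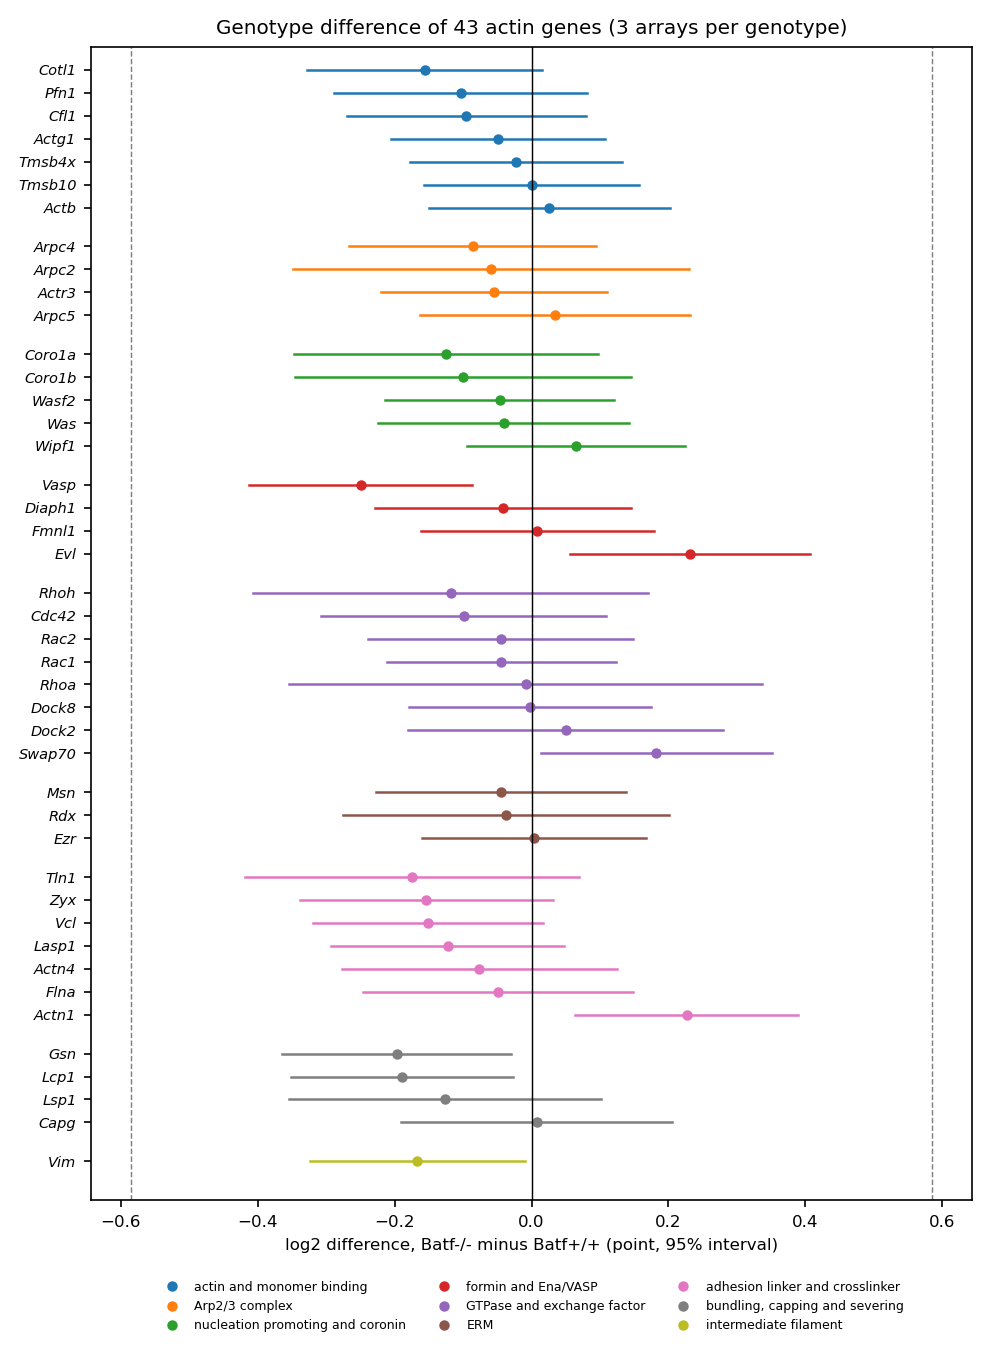
Log2 difference between Batf-/- and Batf+/+ Treg cells for the 43 measured actin genes, grouped by role, with points for the estimate and lines for the 95% interval (limma, n = 3 arrays per genotype). Dashed lines mark a 1.5-fold change. Every interval lies between them, and 7 of the 43 leave out 0.

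Small differences below 0 were the more common sign. In Batf-/- cells 32 of the 43 members had a value below 0 (74.4%), where 48.2% of all genes did, and the median of the members was -0.05 against 0.0047 for all genes. The median over the members was 0.02, -0.02 and 0 on the Batf+/+ arrays and -0.06, -0.11 and -0.05 on the Batf-/- arrays. The Batf-/- arrays were thus all below the Batf+/+ arrays in this median. The mean of the T cell markers given above was barely apart, with -0.089 the lowest on Batf+/+ arrays and -0.097 the highest on Batf-/- arrays. Ikzf2 had the largest difference of that list (-0.51), and Cd4 and Il2ra lay above 0 (0.01 and 0.21). The part of the markers in the shift of the members was not tested. The members were chosen as a list and are not independent of each other, so this is given as a description with no test.

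**Figure D2:**
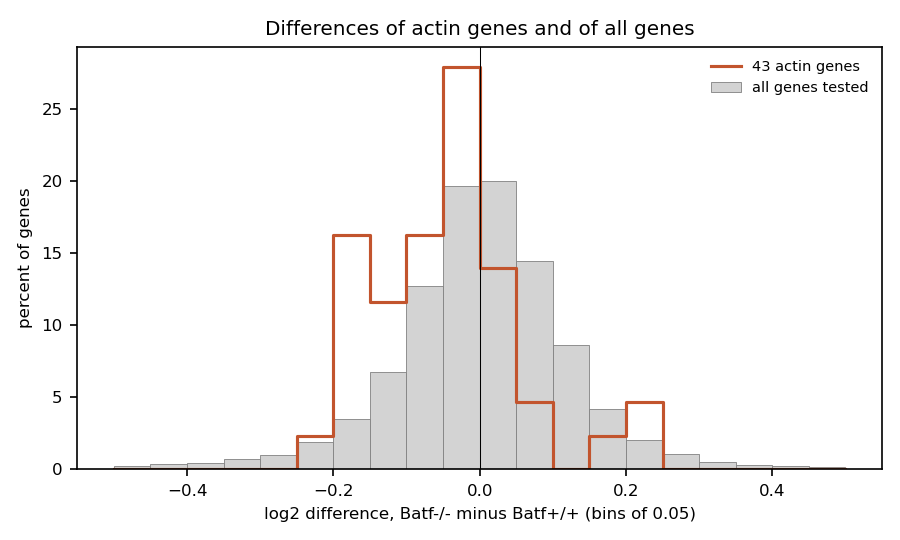
Distribution of log2 differences (Batf-/- minus Batf+/+) in bins of 0.05, as percent of the 43 actin genes (line) and of all 18193 genes (bars). The median is -0.05 for the actin genes and 0.0047 for all genes, and the actin genes lie between -0.25 and 0.23.

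The arrays of the genotypes did not overlap in 12 of the 43 members (27.9%), a separation seen in 12% of all genes. It was toward lower values in 8 of the 43, Vasp, Gsn, Lcp1, Vim, Cotl1, Vcl, Lasp1 and Actg1, against 6.55% of all genes. It was toward higher values in 4 of the 43, Evl, Actn1, Swap70 and Wipf1, against 5.50% of all genes. As none of them passed the adjusted threshold, these genes are given by their values and not as changes.

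**Figure D3:**
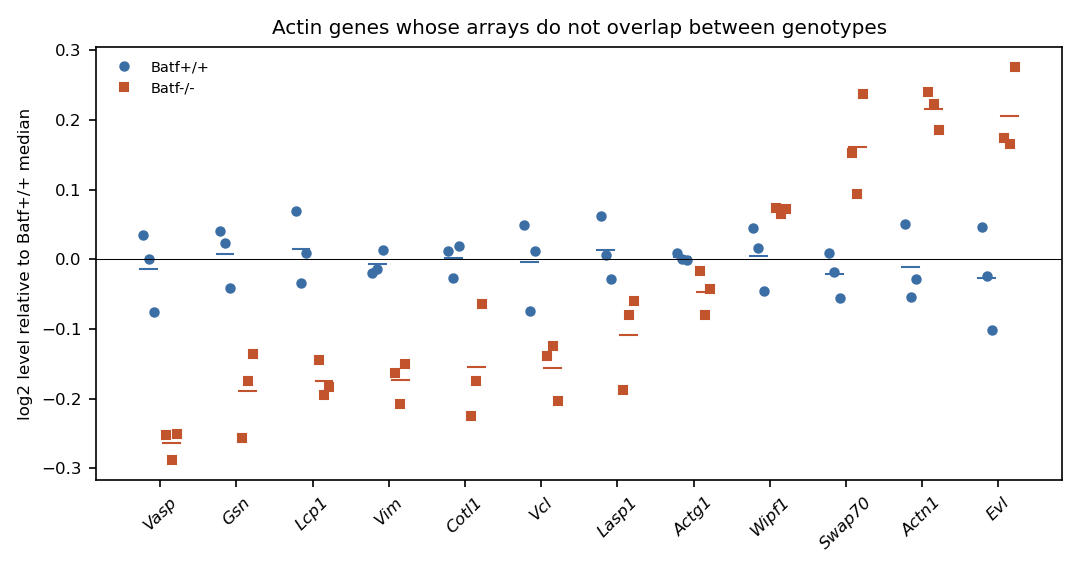
Log2 level relative to the Batf+/+ median on each array for the 12 actin genes in which the genotypes are fully apart (circles Batf+/+, squares Batf-/-, short lines the group means, n = 3). In 8 genes the Batf-/- arrays are lower and in 4 higher, and the group means are at most 0.25 apart.

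Promoter sequence gives a view of the set that uses no array values, although the set was chosen with earlier results known. In the RefSeq windows from 250 bases before to 50 bases after the start of a gene (GRCm38.p6), 39 of the 46 genes were matched by symbol, with 50 windows in all. The AP-1 element TGANTCA, the site of Batf with Jun proteins, reads the same on both strands, and 3 member windows held it (6%) against 7.81% of all 32851 windows. The BATF-IRF composite elements, an AP-1 element next to an IRF half-site in a spaced and an adjoining form, searched on both strands, were in 0 member windows and in 0.119% and 0.125% of all windows. The CArG box, the site of the serum response factor Srf that is known to drive actin genes, was in 3 member windows (6%) against 1.63% of all. The stretches below show these 6 matches with up to 25 bases on each side, since they are the matches in these windows to the motif of the factor removed in these mice or of the known regulator of actin genes. The other 7 members and all DNA outside the windows were not searched. Capitals mark the match, and the strand is that of the gene.
Zyx AP-1 element, chr6:42349682-42349738, plus strand, 121 bases before the start: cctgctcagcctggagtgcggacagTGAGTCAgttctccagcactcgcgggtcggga
Ezr AP-1 element, chr17:6782781-6782837, minus strand, 32 bases before the start: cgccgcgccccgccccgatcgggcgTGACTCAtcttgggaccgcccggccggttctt
Actn4 AP-1 element, chr7:28962470-28962526, minus strand, 169 bases before the start: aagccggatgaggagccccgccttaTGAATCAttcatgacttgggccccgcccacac
Actg1 CArG box, chr11:120348551-120348610, minus strand, 90 bases before the start: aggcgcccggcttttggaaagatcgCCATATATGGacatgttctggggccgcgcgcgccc
Vcl CArG box, chr14:20929148-20929205, plus strand, 227 bases before the start: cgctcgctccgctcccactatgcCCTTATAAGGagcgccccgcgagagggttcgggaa
Arpc4 CArG box, chr6:113377863-113377897, plus strand, 250 bases before the start: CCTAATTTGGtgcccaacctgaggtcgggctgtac
The 3 genes with an AP-1 element had log2 differences of -0.15 (Zyx), 0.0035 (Ezr) and -0.08 (Actn4), and the 3 with a CArG box had -0.05 (Actg1), -0.15 (Vcl) and -0.09 (Arpc4), with limma adjusted p values of at least 0.739. A match is a description of the letters and not evidence of binding.

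Of the 7 genes for actin and the proteins that hold, bind or cut it, 0 passed the threshold. Their median log2 difference was -0.05, and 5 lay below 0. Actb, the cytoplasmic beta-actin, was at -0.08, -0.01 and 0.11 on the Batf+/+ arrays and at 0.05, 0.01 and 0.04 on the Batf-/- arrays, a difference of 0.03 ± 0.08 (SE, n = 3, 95% interval -0.15 to 0.20). The mean hides probe sets on opposite sides of 0, at 0.117 and -0.065, of which the second has the suffix _a_at. The Batf-/- arrays lay inside the range of the Batf+/+ arrays. Its near-identical partner Actg1, the gamma-actin, had 0.01, 0 and -0.00036 in Batf+/+ cells and -0.02, -0.08 and -0.04 in Batf-/- cells. These did not overlap, but the difference of -0.05 ± 0.07 (95% interval -0.21 to 0.11) was smaller than its error. The single Actg1 probe set carries a suffix that marks shared sequence, so it may also read related transcripts.

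The subunit-binding proteins had no call either. Pfn1, the profilin that feeds actin subunits to growing ends, was at 0.00, -0.10 and 0.09 in Batf+/+ cells and at -0.18, -0.09 and -0.05 in Batf-/- cells (difference -0.10 ± 0.08). Cfl1, the cofilin that cuts old filaments, was at 0.04, -0.10 and 0 and at -0.17, -0.14 and -0.05 (difference -0.10 ± 0.08). Both overlapped between genotypes. Tmsb4x, the thymosin that holds unused actin subunits, was at 0.01, 0.00 and -0.01 and at -0.05, -0.01 and -0.01, with an interval of -0.18 to 0.13, and the 5 probe sets of its relative Tmsb10 lay between -0.05 and 0.06.

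Cotl1, a coactosin-like protein that binds filaments, stood lowest in this group. It was at 0.01, -0.03 and 0.02 on the Batf+/+ arrays and at -0.23, -0.17 and -0.06 on the Batf-/- arrays, a difference of -0.16 ± 0.08 (limma adjusted p = 0.732). The arrays did not overlap, and its 6 probe sets all lay below 0, between -0.17 and -0.12, with 4 of them separate between genotypes.

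The branching machinery showed no called difference at any step. Of the 4 measured Arp2/3 genes 0 passed, with differences of -0.09 ± 0.08 for Arpc4, -0.06 ± 0.13 for Arpc2, -0.05 ± 0.07 for Actr3 and 0.03 ± 0.09 for Arpc5. Of the 5 genes for Was family proteins, their partner and the coronins, 0 passed, with a median of -0.05. Was, the Wiskott-Aldrich syndrome protein that turns on Arp2/3, was at 0, -0.07 and 0.06 in Batf+/+ cells and at 0.06, -0.08 and -0.11 in Batf-/- cells (difference -0.04 ± 0.08, 95% interval -0.22 to 0.14). Coro1a, the coronin that lymphocytes need for survival and migration, was at 0.02, -0.22 and 0.05 and at -0.17, -0.29 and -0.07 (difference -0.13 ± 0.10). In both genes the genotypes overlapped. Wipf1, the partner that protects Was from degradation, was higher on all Batf-/- arrays, but by 0.07 ± 0.07 only. Of its 2 probe sets 0 separated the genotypes. Wasf2, the Was relative that answers to Rac, had -0.05 ± 0.07, and Coro1b, a coronin that acts on Arp2/3 branches, had -0.10 ± 0.11.

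The Ena/VASP proteins, which lengthen filaments, lay at opposite ends of the range in this fit. Vasp, read by 1 probe set, was at 0.03, 0 and -0.08 on the Batf+/+ arrays and at -0.25, -0.29 and -0.25 on the Batf-/- arrays. The Batf-/- arrays were tightly grouped (SD 0.02) and below all Batf+/+ arrays, with a difference of -0.25 ± 0.07 (SE, n = 3 arrays per genotype, 1.19-fold lower, 95% interval -0.41 to -0.09, limma adjusted p = 0.256). Evl was at 0.05, -0.02 and -0.10 on the Batf+/+ arrays and at 0.17, 0.17 and 0.28 on the Batf-/- arrays. It lay on the other side, with a difference of 0.23 ± 0.08 (1.17-fold higher, 95% interval 0.06 to 0.41, adjusted p = 0.379). All 4 probe sets of Evl were above 0, between 0.17 and 0.36, and each separated the genotypes. The third family member, Enah, which belongs to the wider list described below, had -0.04 ± 0.07. The formins Fmnl1 and Diaph1, which build unbranched filaments, had 0.0086 and -0.04.

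Among the GTPases and their exchange factors 0 of 8 genes passed, with a median of -0.03. Swap70, a protein that binds actin and acts with Rac, was at 0.01, -0.02 and -0.06 in Batf+/+ cells and at 0.15, 0.09 and 0.24 in Batf-/- cells, a difference of 0.18 ± 0.07 (limma adjusted p = 0.569). Its arrays did not overlap, and both probe sets agreed in sign, at 0.16 and 0.20. Rac2, the Rac of blood cells, was at 0.04, -0.05 and -0.02 and at -0.14, -0.11 and 0.09, which overlapped (difference -0.05 ± 0.09). Dock8, the Cdc42 exchange factor needed by T cells that squeeze through tissue, was at -0.09, -0.02 and -0.03 and at 0.05, -0.13 and -0.05. These overlapped, with a difference of -0.0024 ± 0.08 and an interval of -0.18 to 0.17. Cdc42, which organises actin at the front of the cell, had -0.10 ± 0.09, Rac1, the widely expressed Rac, had -0.04 ± 0.07, and Dock2, the exchange factor for Rac in lymphocytes, had 0.05 ± 0.10.

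Evl and Swap70 had their highest value on Batf-/- array 3, and so did some markers of other cell types, although the cells were selected as CD4+ and for the human CD2 reporter. Swap70 is also expressed in B cells. Of 7 measured B cell markers 0 passed the threshold and their mean level ran from -0.07 to 0.07 on Batf+/+ arrays and from 0.07 to 0.43 on Batf-/- arrays. Cd22 was at 1.76 on Batf-/- array 3 and at 0.52 and 0.43 on the other Batf-/- arrays, and Cd79a, Cd79b and Ms4a1 were at 0.34, 0.47 and 0.34 on array 3, their highest values. Pax5, Blk and Cr2 were at -0.08, 0.03 and 0.13 there, which was not their highest, so the list mean on that array rests mainly on Cd22. Outside the B cell list, every measured macrophage marker was also highest on array 3, among them Lyz2 at 0.59 and Csf1r at 0.47. Eomes of NK cells and Pecam1 of endothelium were highest there too, at 0.84 and 0.53. The other measured NK markers, Ncr1, Klra8 and Klrk1, were not, at -0.09, -0.12 and 0.09, and neither was Cdh5 of endothelium, at 0.03. Without that array the difference of Evl was 0.20 and that of Swap70 0.14. The part of the markers in these values was not tested.

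Rhoa, Arpc2 and Rhoh had Batf-/- SDs of 0.33, 0.26 and 0.25. Rhoh, a GTPase of blood cells that lacks the usual switch activity, was at 0.07, -0.15 and 0.03 in Batf+/+ cells and at 0.14, -0.35 and -0.20 in Batf-/- cells, with a difference of -0.12 ± 0.13. This value turned on single arrays: leaving out Batf-/- array 1 gave -0.26 and leaving out Batf-/- array 2 gave -0.01, with no call in either. Rhoa, which drives contraction at the rear of the cell, was at 0.05, 0.08 and -0.12 and at 0.37, -0.26 and -0.12. In both genes Batf-/- array 1 was high and array 2 low, and the genotypes overlapped. The spread of Rhoa, Arpc2 and Rhoh came mainly from 1 probe set of each, described under the other observations. Without that probe set the Batf-/- SDs were 0.02, 0.02 and 0.05.

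The ERM proteins Ezr, Rdx and Msn, which tie actin to the membrane, had differences of 0.0035, -0.04 and -0.04, and 0 of the 3 passed. The adhesion linkers and crosslinkers lay lower, with 6 of 7 below 0, a median of -0.12 and 0 past the threshold. Vcl, the vinculin of focal adhesions, was at 0.05, -0.07 and 0.01 on the Batf+/+ arrays and at -0.14, -0.12 and -0.20 on the Batf-/- arrays (difference -0.15 ± 0.07, limma adjusted p = 0.739). Those arrays did not overlap in the gene mean, but 0 of its 2 probe sets separated the genotypes. Zyx, the zyxin that is recruited to stretched filaments and binds Ena/VASP proteins, was at -0.07, -0.12 and 0.03 and at -0.29, -0.20 and -0.12, which overlapped narrowly (difference -0.15 ± 0.08, adjusted p = 0.806). Tln1, the talin that activates integrins, had -0.17 ± 0.11, with Batf-/- array 2 lowest at -0.38. Lasp1, an adaptor of adhesions and the member with most probe sets (9), did not overlap between genotypes (difference -0.12 ± 0.07). It was at 0.06, 0.0065 and -0.03 in Batf+/+ cells and at -0.19, -0.08 and -0.06 in Batf-/- cells. Its probe sets ran from -0.24 to 0.04, with 8 of the 9 below 0 and 3 separate between genotypes. Flna, the filamin that crosslinks filaments, had -0.05 ± 0.09 and overlapped.

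Actn1 was the exception among the linkers. This alpha-actinin, which crosslinks filaments at adhesions, was at 0.05, -0.05 and -0.03 in Batf+/+ cells and at 0.24, 0.22 and 0.19 in Batf-/- cells. The groups were apart, with a difference of 0.23 ± 0.07 (SE, n = 3 arrays per genotype, 1.17-fold higher, 95% interval 0.06 to 0.39, limma adjusted p = 0.332). All 3 of its probe sets were above 0, from 0.16 to 0.32, and each separated the genotypes, while the other alpha-actinin, Actn4, had -0.08 ± 0.09.

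Among the proteins that bundle, cap or cut filaments, Gsn and Lcp1 were the lower ones and 0 of 4 passed. Gsn, the gelsolin that severs and caps, was at 0.04, 0.02 and -0.04 in Batf+/+ cells and at -0.26, -0.17 and -0.14 in Batf-/- cells, a difference of -0.20 ± 0.07 (95% interval -0.36 to -0.03, limma adjusted p = 0.485). All 6 of its probe sets lay below 0, from -0.30 to -0.09, and 3 of them separated the genotypes. Lcp1, the plastin of leukocytes, was at 0.07, -0.03 and 0.01 and at -0.14, -0.19 and -0.18 (difference -0.19 ± 0.07, adjusted p = 0.489), again without overlap, and both of its probe sets were separate.

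The other capping and bundling genes overlapped between genotypes. Capg, a capping relative of gelsolin, was at -0.03, 0.03 and -0.01 and at -0.0021, -0.13 and 0.14 (difference 0.0076 ± 0.09). Lsp1, an actin-binding protein of leukocytes, was at -0.0027, 0 and 0.16 and at -0.18, -0.16 and 0.12 (difference -0.13 ± 0.10). Vim, the vimentin of intermediate filaments and the one member from that filament system, was at -0.02, -0.01 and 0.01 and at -0.16, -0.21 and -0.15. In contrast to Capg and Lsp1 its arrays were apart, with a difference of -0.17 ± 0.07 (95% interval -0.32 to -0.01, limma adjusted p = 0.582).

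Single probe sets gave no call that the gene means had hidden. Tested one by one, 0 of the 111 probe sets of the members had an adjusted p below 0.05, where 0.713% of all 34945 did, and the smallest was 0.242, for a probe set of Evl. At an unadjusted p below 0.05 there were 10 of the 111, where that level was met by 6.90% of all probe sets. The genotypes were separate in 33 of the 111, against 11.7% of all probe sets. Of the 33 members with more than 1 probe set, 19 had all of them on the same side of 0.

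**Figure D4:**
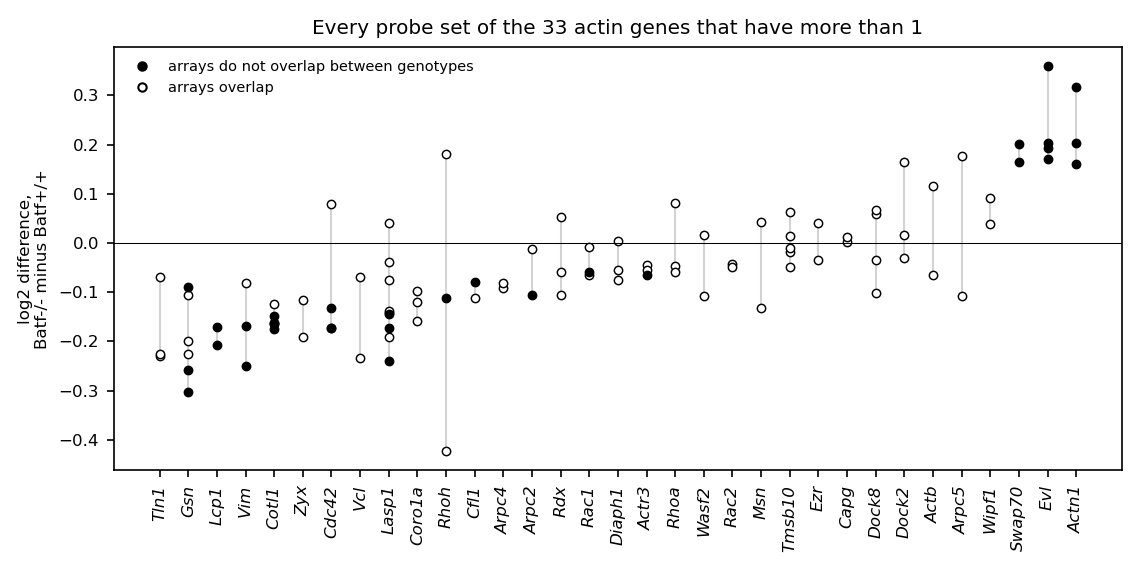
Log2 difference (Batf-/- minus Batf+/+) of every probe set of the 33 actin genes that have more than 1, ordered by the median of the gene, with filled points where the arrays of the genotypes do not overlap. Gsn, Lcp1, Vim and Cotl1 have all probe sets below 0 and Swap70, Evl and Actn1 all above 0, while Rhoh runs from -0.42 to 0.18.

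A wider list of actin regulators outside the set, also chosen with earlier results of these data known, was read in the same fit. Of its 97 genes 88 were measured, and 1 fell and 0 rose, a share equal to the 1.14% called among all genes. At an unadjusted p below 0.05 there were 10 (11.4%, against 7.69% of all genes), 8 lower and 2 higher. The median was -0.04, and 57 lay below 0 (64.8%, against 48.2% of all genes). The gene that fell was Pfn2, a profilin best known from neurons, and its 3 probe sets were at -1.08, -0.68 and -0.49. It was at -0.01, 0.02 and -0.02 on the Batf+/+ arrays and at -0.70, -0.77 and -0.79 on the Batf-/- arrays. The Batf-/- arrays were grouped tightly (SD 0.05) far below the Batf+/+ arrays, with a difference of -0.75 ± 0.07 (SE, n = 3 arrays per genotype, 1.68-fold lower, limma adjusted p = 0.00148). Its relative among the members, Pfn1, had an interval of -0.29 to 0.08, and whether the profilins differ from each other was not tested.

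The largest difference of the wider list had no call. Scin, the calcium-dependent severing protein scinderin of the gelsolin family, was at 0, 0.33 and -0.21 in Batf+/+ cells and at 0.93, 0.88 and 3.53 in Batf-/- cells. Its Batf-/- arrays were all above the Batf+/+ arrays, but array 3 stood far above the others (SD 1.52), and the difference of 1.74 ± 0.60 had a limma adjusted p = 0.413. Without Batf-/- array 3 the difference was 0.86 with an adjusted p of 0.0397. That array also had the highest mean of the B cell markers, and their part in the value was not tested. Avil and Pls3, relatives of gelsolin and of Lcp1, had 0.27 ± 0.10 and -0.34 ± 0.11, with adjusted p values of 0.458 and 0.355.

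**Figure D5:**
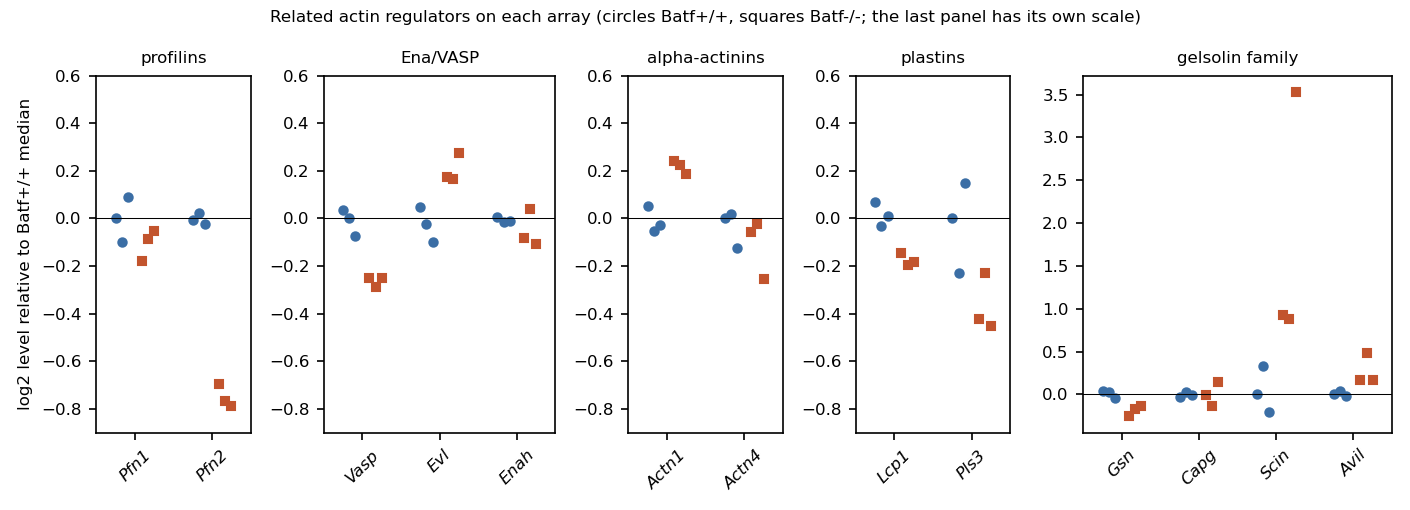
Log2 level relative to the Batf+/+ median on each array for related actin regulators, in 5 families (circles Batf+/+, squares Batf-/-, n = 3; the gelsolin panel has its own scale). Pfn2 is lower on every Batf-/- array, at -0.70, -0.77 and -0.79, Vasp and Evl lie on opposite sides of 0, and Scin reaches 3.53 on Batf-/- array 3.

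Genes of the Srf program, read as a list of known targets and cofactors, had 0 of 12 past the threshold and a median of -0.05. The list shares Vcl with the members and Tpm1 with the wider list, so it is not a separate reading. Srf itself had a difference of 0.0078, and its cofactors Mrtfa and Mrtfb -0.06 and -0.04. Actg2, the smooth muscle gamma-actin, was at 0, -0.03 and 0.19 in Batf+/+ cells and at -0.75, -0.71 and -0.19 in Batf-/- cells. These did not overlap, with a difference of -0.60 ± 0.15 and a limma adjusted p = 0.132.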

How the data were processed

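RNA of 3 Batf+/+ and 3 Batf-/- Treg samples was hybridised to a 3' expression array after biotin labelling, per the labels' protocols. The deposited log2 values were made with RMA, per the submitters' processing notes, with no version or log base given in the sources used here. Base 2 was assumed. In all 45101 probe sets the middle Batf+/+ value is 0, so the values are relative to that median, and absolute level and signal over background are unknown. No filter on low values was possible. The number of arrays limits the precision.

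The platform annotation gave 34945 probe sets with 1 gene, 932 with several and 9160 with none listed, and 64 were controls. A gene's value was the mean of its probe sets with 1 gene. Differences between genotypes came from limma 3.58.1, run in R 4.3.3 (lmFit, eBayes; the model held genotype alone), over all 18193 genes, with Benjamini-Hochberg adjustment and a call at an adjusted p below 0.05. The script was tested on simulated data. A fold is the antilog of a log2 difference. The members and lists were chosen with earlier results of these data known. Values on every array are given for called members, the 10 with the smallest adjusted p, the 3 largest differences each way and 15 genes fixed by name, which gave 22 genes. Others named were singled out after their values were seen.

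With group means removed, arrays that share a number correlated at 0.407, 0.154 and 0.413 across genes, each over the minimum of 0.1, so the title numbers may pair the arrays. Correlations between arrays of unlike number were not computed, and no label states a pairing. The errors, p-values and overlaps given are nonetheless unpaired, comparing all arrays whatever their number. The fit with the replicate block was an alternative, with quantile normalization, equal array medians, array weights, single probe sets, leaving out probe sets of shared sequence and leaving out each array. Probe sets counted as of shared sequence had the suffix _s_at, _x_at or _a_at, of which _a_at can mark transcripts of the same gene.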

Additional observations from a re-analysis of the deposited data

How the results depend on the processing

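No member was called under any of the 12 alternatives: 0 of the 43 genes passed the threshold (0 of the 38 left without probe sets of shared sequence). At an unadjusted p below 0.05 there were 2 members after quantile normalization and 10 with the replicate block, against 7. The block, which treats same-numbered arrays as pairs, gave 293 called genes in all against 208 and changed no call among the members or the wider list. Quantile normalization gave 81 called genes, and leaving out an array gave 105 to 192, where Batf+/+ array 1 left out gave 109 and Batf+/+ array 2 gave 105. The median of the members stayed between -0.07 and -0.03. Pfn2 was called in all 12 alternatives (adjusted p 0.000556 to 0.0144). The wider list had 1 to 2 called genes when an array was left out, the added gene being Scin, which passed only without Batf-/- array 3. The sign was the same throughout for 30 members and turned at least once for 13, whose differences were at most 0.10. Among the named genes, Actb ran from -0.0164 to 0.0767 when an array was left out and was 0.117 without probe sets of shared sequence. Capg was -0.0080 after quantile normalization, -0.0418 with array weights and -0.0628 to 0.0754 when an array was left out. Dock8 was 0.0155 after quantile normalization and -0.0498 to 0.0410 when an array was left out, and its probe set with the smallest p was at -0.102. The ends of the members' range changed with the setting: Actn1 was highest after quantile normalization (0.19) and with array weights (0.24). A filter on low values was not run, since the values are centred. The centring leaves unknown which members were near background.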

Other observations

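Batf-/- array 1 stood above the other Batf-/- arrays in 5 of the 111 probe sets of the actin genes by more than 0.5 on the log2 scale, 1 each of Rhoa, Rhoh, Arpc2, Dock2 and Rdx. The probe sets, singled out after their values were seen, were at 1.22, -0.76 and -0.32 on the Batf-/- arrays for Rhoa, at 0.53, -1.12 and -0.70 for Rhoh, at 0.51, -0.41 and -0.30 for Arpc2, at 0.43, -0.41 and -0.29 for Dock2 and at 0.61, -0.55 and -0.22 for Rdx. Of all 34945 probe sets 780 (2.23%) stood so on array 1, against 62 on array 2 and 227 on array 3. Without these probe sets the Batf-/- values of Rhoa, the main GTPase of contraction, were -0.05, -0.01 and -0.02 and the SD was 0.02 in place of 0.33. Those of Rhoh became -0.05, 0.04 and 0.04, and its difference was 0.03 in place of -0.12. The difference was -0.05 for Rhoa, -0.11 for Arpc2, 0.09 for Dock2 and -0.0033 for Rdx. No test was made on these trimmed values.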
